A study of Mus musculus with 4 samples.

Results

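The 34 symbols listed as glycolysis and hypoxia genes fall into 23 genes of glucose uptake, glycolysis and lactate export, 5 genes of the hypoxia-inducible factor (HIF) system and 6 HIF targets. They are listed by gene name. Of these, 33 were found among the 41388 genes in the count tables, Mxi1l matched no symbol there, and 32 had enough reads to be tested. Ldhb, the lactate dehydrogenase subunit of aerobic tissues, was found but not tested, with 3 and 0 reads counted in control 1 and 2, and 2 and 0 in stimulated 1 and 2. The samples were Mnk3 cells, a mouse line with features of group 3 innate lymphoid cells (ILC3). In the control group cells were left untreated for about 16 hours, and in the stimulated group they received IL-1b and IL-23, each at 10 ng/ml, for the same time. Each group had 2 ribosome-depleted RNA libraries, called control 1 and 2 and stimulated 1 and 2, where number 1 has rep1 in its title and number 2 has no number there. Whether each library had its own culture is not stated in the labels, and the p-values below then reflect the spread of the libraries alone, which may be technical. All come from 1 cell line, and no library from other cells or other oxygen levels was analysed here.

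Summed counts ranged from 23047723 to 29078765 per library. Markers of ILC3 were present in all 4 libraries, with a summed CPM (counts scaled by library size) of 4367 and 4115 for control 1 and 2 and of 2271 and 2248 for stimulated 1 and 2. Of the 12 ILC3 markers, 1 rose and 6 fell. By the same test, described below, 17.5% of all genes tested were called higher and 18.3% lower. T cell markers summed to 213 and 157 CPM in the controls and 38.1 and 44.8 CPM after stimulation, with 3 of 6 tested lower. Myeloid markers were low and summed to 6.04 and 4.06 CPM in the controls and 9.62 and 12.3 CPM after stimulation, with 2 of 5 tested higher. B cell, stromal, epithelial and erythroid markers summed to 0.306 to 8.57 CPM, with 1 gene called lower in each of the first 3 of these lists, and Lyz2, Cd14, Hbb-bs and Hbb-bt had no count in any library. The part of these markers in the results below was not tested. In bulk RNA, fewer cells expressing a gene and less RNA per cell cannot be told apart.

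Glycolysis splits glucose into pyruvate, first spending ATP to trap and split the sugar and then regaining ATP in the steps that follow the triose phosphates. Lymphocytes that respond to cytokines often turn much of the pyruvate into lactate and export it. HIF-1, a dimer of HIF-1 alpha and ARNT, is degraded in oxygen after prolyl hydroxylases of the EGLN family mark its alpha subunit for the ubiquitin ligase subunit VHL. When stable it binds a short DNA core in the promoters and enhancers of many glycolytic genes and of its own feedback genes, so the same factor is known to act on both groups of genes described here.

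Calls among the tested glycolysis members were mostly higher, and those among the few listed HIF genes were lower. Of the 22 tested glycolysis members, 7 rose after stimulation (Slc16a1, Pgk1, Eno1, Eno3, Pgam1, Gapdh and Ldha), 1 fell (Pfkp) and 14 did not pass the threshold, by edgeR's quasi-likelihood test with Benjamini-Hochberg adjustment over all 13838 genes tested and a threshold of 0.05. Of the 10 tested genes of the HIF system and HIF targets, none rose, 4 fell (Egln3, Pdk1, Bnip3l and Ankrd37) and 6 did not pass. HIF genes outside the members, described further below, were not mostly lower. Among 35 other tested HIF targets 14 rose and 5 fell, and among 14 other HIF subunits and oxygen-sensing genes 4 rose and 5 fell. Over all genes tested, 17.5% were called higher and 18.3% lower. The median log2 change, stimulated minus control, was 0.42 over the tested glycolysis members, -0.41 over the tested HIF members and -0.02 over all genes tested. Both stimulated libraries lay above both controls for 14 of the 22 glycolysis members and 1 of the 10 HIF members, and for 34.4% of all genes. Both lay below both controls for 3 and 6 of them, and for 36.3% of all genes.

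**Figure D1:**
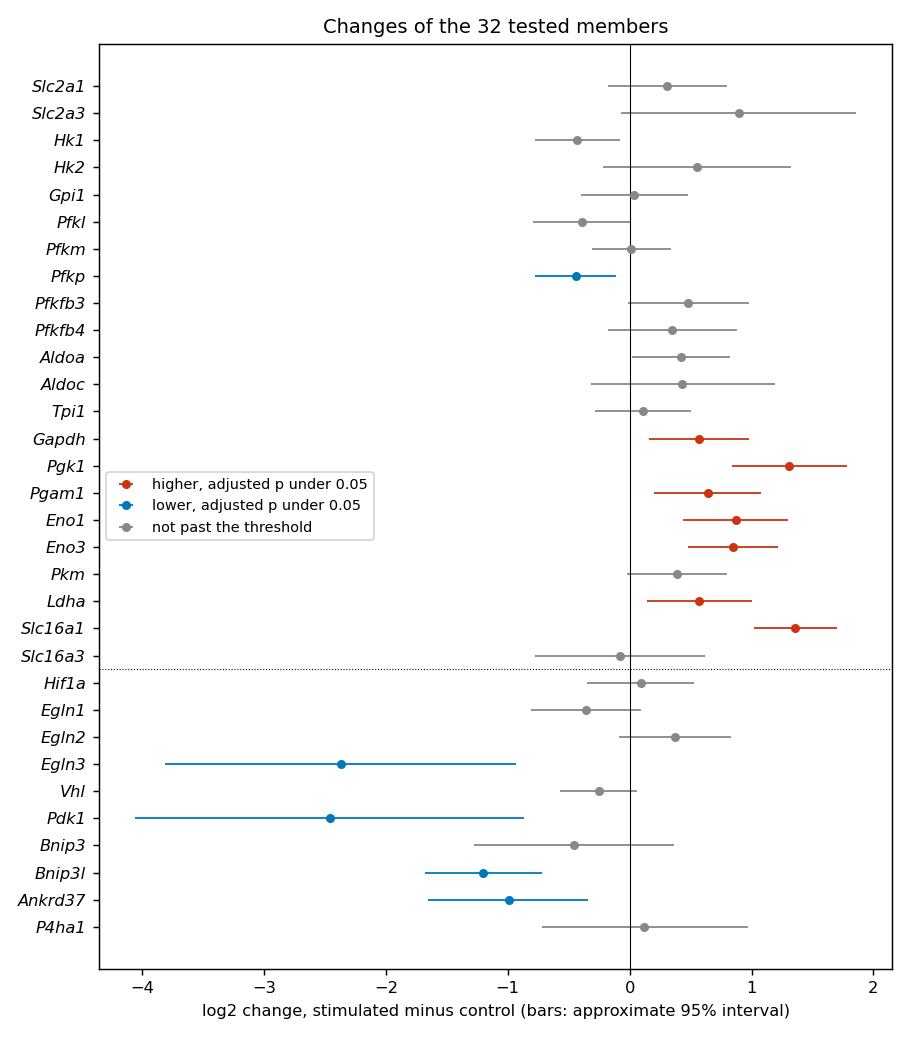
Log2 change of each tested member, stimulated minus control, with approximate 95% intervals from the edgeR fit. The horizontal axis is the log2 change and each line is a gene, with transport and glycolysis genes above the dotted line and HIF system and target genes below it. The 7 red points run from 0.57 for Gapdh and Ldha to 1.36 for Slc16a1, and the 5 blue points from -0.44 for Pfkp to -2.46 for Pdk1.

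Promoter sequence from RefSeq (assembly GRCm38.p6) is shown for 3 members that rose and 2 that fell, because genes of both directions hold the hypoxia response element core. Each line gives the 250 bases before the RefSeq transcript start, read 5′ to 3′ on the gene's strand, and capitals mark each match to ACGTG or GCGTG on either strand. The 5 genes, and the use of the first listed start where there are several, were chosen after values were seen.
Ldha (chr7:46845554-46845803, + strand): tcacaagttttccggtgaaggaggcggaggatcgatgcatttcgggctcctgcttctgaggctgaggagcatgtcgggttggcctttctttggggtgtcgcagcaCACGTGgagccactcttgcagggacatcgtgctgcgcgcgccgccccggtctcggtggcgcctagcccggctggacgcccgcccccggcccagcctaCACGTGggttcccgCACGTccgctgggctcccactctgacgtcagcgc
Pgk1 (chrX:106186850-106187099, + strand): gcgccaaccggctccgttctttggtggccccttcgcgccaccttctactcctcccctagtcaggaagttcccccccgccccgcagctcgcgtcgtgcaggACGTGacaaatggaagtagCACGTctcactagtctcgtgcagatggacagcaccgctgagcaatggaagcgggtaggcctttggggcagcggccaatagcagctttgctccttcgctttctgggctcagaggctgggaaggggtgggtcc
Slc16a1 (chr3:104638414-104638663, + strand): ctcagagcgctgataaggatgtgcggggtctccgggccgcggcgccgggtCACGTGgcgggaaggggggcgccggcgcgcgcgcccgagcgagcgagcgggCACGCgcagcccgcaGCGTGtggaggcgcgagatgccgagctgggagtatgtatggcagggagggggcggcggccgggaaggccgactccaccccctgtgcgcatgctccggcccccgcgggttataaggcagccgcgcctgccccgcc
Pdk1 (chr2:71872974-71873223, + strand): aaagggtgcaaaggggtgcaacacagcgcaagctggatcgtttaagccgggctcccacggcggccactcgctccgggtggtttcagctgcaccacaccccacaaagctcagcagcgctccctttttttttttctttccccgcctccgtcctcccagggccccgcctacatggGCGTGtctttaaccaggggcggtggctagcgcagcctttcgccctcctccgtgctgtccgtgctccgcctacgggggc
Ankrd37 (chr8:45999851-46000100, - strand): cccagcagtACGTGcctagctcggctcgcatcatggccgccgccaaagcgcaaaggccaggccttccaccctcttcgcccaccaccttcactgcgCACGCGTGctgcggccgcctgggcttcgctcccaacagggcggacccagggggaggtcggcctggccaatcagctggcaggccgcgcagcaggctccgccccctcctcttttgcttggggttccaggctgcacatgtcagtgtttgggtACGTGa
Ldha held 5 matches, at 145, 144, 48, 47 and 34 bases before the start, of which 4 are both strands of a pair of CACGTG boxes. Pgk1 had 2 matches, at 150 and 131 bases before its start. Slc16a1 had 4, including 1 CACGTG box. Pdk1 had a match 78 bases before its start and another that begins 2 bases before the start and runs past the printed stretch, so it is not in capitals, and for Ankrd37 there were 4, the nearest of them 6 bases before it. The Ldha window lies inside the span that the count tables list for the gene, since an upstream transcript extends that span. The core overlaps the E-box CACGTG, which other factors bind, so a match is only a match of letters.

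Promoter windows were available for 31 of the 34 members, and not for Bnip3l, Slc2a3 or Mxi1l. Windows reached from 250 bases before to 50 bases after each start, and 37 of the members' 45 windows (82.2%) held at least 1 match, beside 43.8% of all 32851 windows. By gene, 28 of 31 members (90.3%) had a match in some window, beside 46.7% of 27025 genes. CACGTG was in 15.6% of the members' windows and 7.15% of all windows. Base composition, gene type and expression level were not matched between these sets.

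The facilitative glucose carriers among the members were Slc2a1 (GLUT1) and Slc2a3 (GLUT3), and neither passed the test. Slc2a1 stood at 41.9 and 62.5 CPM in the controls and at 64.5 and 64.9 after stimulation. Control 1 was the low library, and the log2 difference was 0.31 (95% interval -0.18 to 0.80, edgeR adjusted p = 0.281). Slc2a3 was read at 9.62 and 16.4 CPM in the controls and 17.0 and 31.4 after stimulation, a log2 difference of 0.90 with an interval of -0.07 to 1.86 and an edgeR adjusted p of 0.13. Per length, Slc2a1 made up 91.2% ± 0.775 (SD, n = 2) of the class I glucose transporter level in the controls and 86.8% ± 4.82 after stimulation. Outside class I, Slc2a6 stood at 54.5 ± 8.11 CPM per kb in the controls and 65.4 ± 1.87 after stimulation. On that scale Slc2a1 was at 18.3 ± 5.12 and 22.7 ± 0.105.

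The steps that trap glucose and commit it showed differences in both directions. Hexokinase 2, the inducible form that starts the pathway, was at 449 and 296 CPM in the controls and 684 and 408 after stimulation, so its groups overlapped (log2 0.55, interval -0.22 to 1.32, edgeR adjusted p = 0.224). Hk1, the constitutive hexokinase, was lower in both stimulated libraries, at 122 and 100 against 150 and 149 CPM, and missed the threshold (log2 -0.43 ± 0.15 SE, edgeR adjusted p = 0.0625). Per length, Hk2 accounted for 77.5% ± 5.02 of the hexokinase level in the controls and 87.1% ± 2.51 in the stimulated libraries (SD, n = 2), with both stimulated libraries above both controls. Such shares are given as a description, with no test. Gpi1, which isomerises glucose 6-phosphate, overlapped between groups, at 183 and 159 CPM against 203 and 149.

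Phosphofructokinase, the committed step, is built from 3 subunits. Its platelet-type subunit gene Pfkp (ENSMUSG00000021196, chr13:6579768-6648777) was the only glycolysis member that fell, from 290 and 286 CPM to 224 and 199 (log2 -0.44 ± 0.14 SE, edgeR adjusted p = 0.0466). Leaving out any 1 of the 4 libraries ended that call, with edgeR adjusted p-values from 0.0989 to 0.268. Pfkl, the liver-type subunit, was at 169 and 222 against 153 and 145 CPM (edgeR adjusted p = 0.113). Pfkm, the muscle-type subunit, stood at 120 and 117 against 127 and 112 CPM, within the spread of its libraries. Summed per length, the 3 subunits gave 115 ± 7.33 CPM per kb in the controls and 96.8 ± 6.71 after stimulation. Pfkfb3 and Pfkfb4, whose products set the level of an allosteric activator and so the activity of phosphofructokinase, were higher in both stimulated libraries, at 24.3 and 17.1 against 15.4 and 14.2 CPM for Pfkfb3 and 16.1 and 11.4 against 11.2 and 10.4 CPM for Pfkfb4, and neither passed the test (edgeR adjusted p = 0.117 and 0.271).

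**Figure D2:**
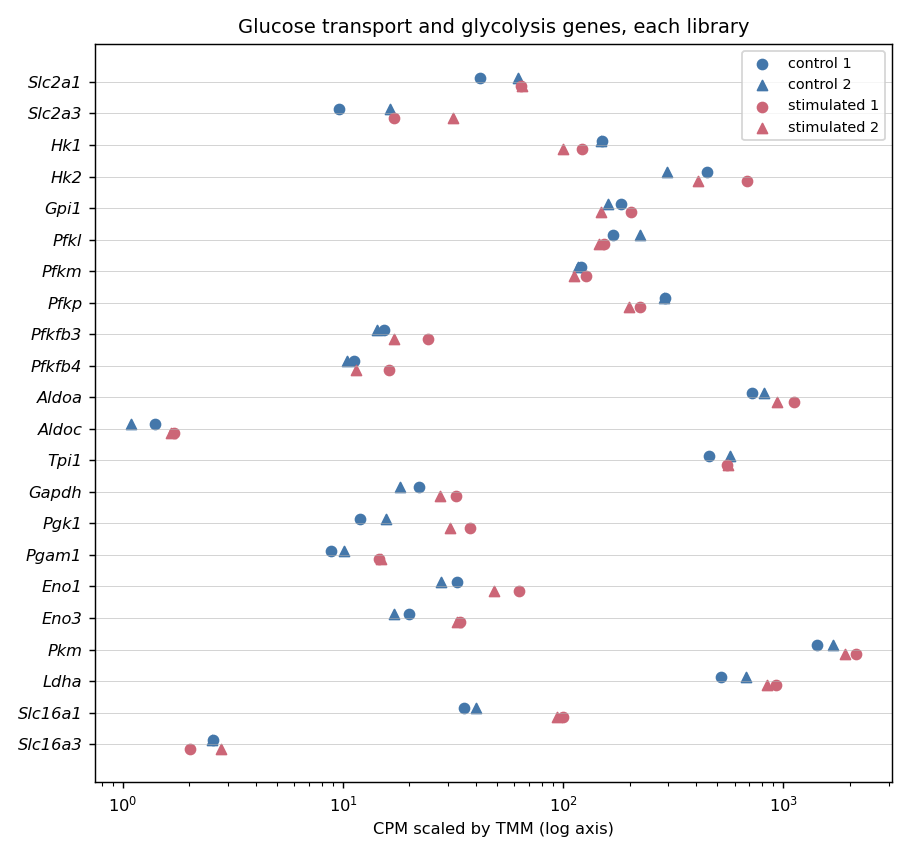
Level of each tested transport and glycolysis gene in each library, in TMM-scaled CPM on a log axis. Blue marks controls, red marks stimulated libraries, circles are library 1 and triangles library 2, with genes in pathway order from glucose entry at the top to lactate export at the bottom. From Gapdh to Ldha, 7 genes had both red points to the right of both blue points, while Tpi1, Hk2, Gpi1, Pfkm and Slc16a3 overlapped.

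Aldolase A, which splits the sugar, was among the most abundant enzymes, at 717 and 815 CPM in the controls and 1118 and 934 after stimulation. Its groups did not overlap, and its log2 difference of 0.42 had an edgeR adjusted p of 0.0956. Aldoc, the brain-type aldolase, was low, at 1.39 and 1.09 against 1.70 and 1.66 CPM, and Aldoa made up 99.8% of the aldolase level per length in the controls. Tpi1, which interconverts the triose phosphates, did not separate the groups, at 461 and 574 CPM against 552 and 562.

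All 7 members that rose lie in the stretch from the triose phosphates to lactate export, where 10 members were tested and the median log2 change was 0.60. Of the 12 tested members before that stretch, none rose and the median was 0.33. This split was made after the values were seen and was not tested. Gapdh (ENSMUSG00000057666, chr6:125161853-125166467), which oxidises glyceraldehyde 3-phosphate, was read at 22.2 and 18.2 CPM in the controls and 32.4 and 27.6 after stimulation, a log2 change of 0.57 ± 0.17 (SE, edgeR adjusted p = 0.0409). Pgk1 (ENSMUSG00000062070, chrX:106187100-106203699), the first ATP-yielding enzyme, had 11.9 and 15.6 CPM in the controls and 37.6 and 30.6 after stimulation. Both stimulated libraries were well above both controls, and the log2 change was 1.31 ± 0.20 (SE, edgeR adjusted p = 0.00337), a fold of 2.47.

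Pgam1 (ENSMUSG00000011752, chr19:41911871-41918664), a phosphoglycerate mutase, went from 8.76 and 10.1 CPM to 14.6 and 14.8 (log2 0.64 ± 0.19 SE, edgeR adjusted p = 0.0356). Eno1 (ENSMUSG00000063524, chr4:150236721-150248879), the widely expressed enolase, went from 33.0 and 27.8 to 62.6 and 48.5 CPM (log2 0.87 ± 0.18 SE, edgeR adjusted p = 0.0108). Eno3 (ENSMUSG00000060600, chr11:70657202-70662513), the muscle enolase, went from 20.0 and 17.1 to 34.1 and 32.9 CPM, and its log2 change was 0.85 ± 0.16 (SE, edgeR adjusted p = 0.00673). The groups were apart for all 3. Pkm, the pyruvate kinase gene and the most abundant member, stood at 1414 and 1673 CPM in the controls and 2140 and 1907 after stimulation. Its groups were also apart, but its log2 difference of 0.39 had an interval of -0.02 to 0.80 and an edgeR adjusted p of 0.122.

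Lactate formation and export were each counted mostly from 1 gene. Ldha (ENSMUSG00000063229, chr7:46841475-46855627), the lactate dehydrogenase subunit that favours lactate, was at 518 and 674 CPM in the controls and 923 and 845 after stimulation (log2 0.57 ± 0.18 SE, edgeR adjusted p = 0.0469). Ldhb was close to absent, so almost all counted lactate dehydrogenase reads came from Ldha. Slc16a1 (ENSMUSG00000032902, chr3:104638668-104658462), the monocarboxylate transporter MCT1, rose about as much as Pgk1, and which of the pair had the larger log2 change depended on the libraries used. It went from 35.4 and 40.2 CPM to 99.9 and 93.8, with libraries of each group close together (log2 1.36 ± 0.14 SE, fold 2.56, edgeR adjusted p = 0.000924). Slc16a3 (MCT4), the exporter that HIF-1 is known to induce, was low and its groups overlapped, at 2.55 and 2.53 CPM against 2.02 and 2.80 (log2 -0.08, interval -0.78 to 0.62). Per length, Slc16a1 was 94.7% ± 0.487 of the summed level of Slc16a1, Slc16a3 and Slc16a7 in the controls and 97.9% ± 0.515 after stimulation (SD, n = 2).

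Several of these calls rested on particular libraries. Leaving out any 1 of the 4 libraries ended the call for Pgam1 (edgeR adjusted p from 0.0697 to 0.164). Ldha lost its call without control 1 (0.225), stimulated 1 (0.154) or stimulated 2 (0.0599), Gapdh without control 2 (0.177) or stimulated 1 (0.209), and Eno1 without stimulated 1 (0.0559), each an edgeR adjusted p. Slc16a1, Pgk1 and Eno3 passed with any single library left out. Scaling to total counts also ended the calls of Ldha (0.0754), Gapdh (0.0754) and Pgam1 (0.0621), edgeR adjusted p-values all.

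Enzymes of 1 linear pathway were counted at very different levels per length, and they also differ in how much sequence they share with other genes. In the controls Gapdh, Pgk1, Pgam1 and Eno1 stood at 7.88 ± 1.09, 6.14 ± 1.18, 5.14 ± 0.509 and 5.65 ± 0.694 CPM per kb, while Tpi1, Aldoa and Pkm were at 234 ± 36.1, 278 ± 25.0 and 594 ± 70.4 (SD, n = 2). Of the 50-base stretches of the transcripts, 53.9% of those of Pgk1, 36.2% of Pgam1, 26.0% of Eno1 and 25.1% of Gapdh were also found in annotated genes at other loci. Pkm had 25.8% and was the most abundant member, and Eno3, with no shared stretch, stood at 10.7 ± 1.19 CPM per kb in the controls. With stretches of 100 bases the shares were 51.7% for Pgk1, 33.9% for Pgam1, 20.4% for Eno1, 20.9% for Gapdh and 12.3% for Pkm. The part of shared sequence in the levels was not tested. With stretches of 50 bases, Tpi1, Aldoa and Ldha had 4.18%, 6.43% and 9.26%, and Slc16a1 had none. The sources used here do not say how reads that fit several loci were counted, which leaves the levels of members with copies uncertain.

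One Gapdh-like gene, Gm13394, held more counts than Gapdh itself, at 1910 and 1226 in the controls and 2789 and 1716 after stimulation, against 669, 534, 819 and 631 for Gapdh. Counts of such copies, those sharing at least 10% of a member's stretches, were also added to the member. Gapdh then had a log2 change of 0.75 (edgeR adjusted p = 0.0408) and Eno1 of 0.90 (0.015), and no member's call changed. The copies of Pgk1 held 1 and 4 counts in the controls and 0 and 1 after stimulation, and those of Pgam1 0 and 0, then 0 and 1. For Bnip3l the copy held 12 and 18, then 4 and 3. The counted copy of Bnip3 held 0 in every library, and the copies of Pkm were not among the genes counted. Adding so few counts, or none, could not show whether shared sequence bears on the calls of these members. Of the 5 tested glycolysis members with at least 10% of their stretches at other loci, 4 rose. Of the 17 under 10%, 3 rose and 1 fell, beside 17.5% higher and 18.3% lower over all genes tested. This comparison and its 10% limit were chosen after values were seen, and its part in the count of 7 was not tested beyond these values.

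**Figure D3:**
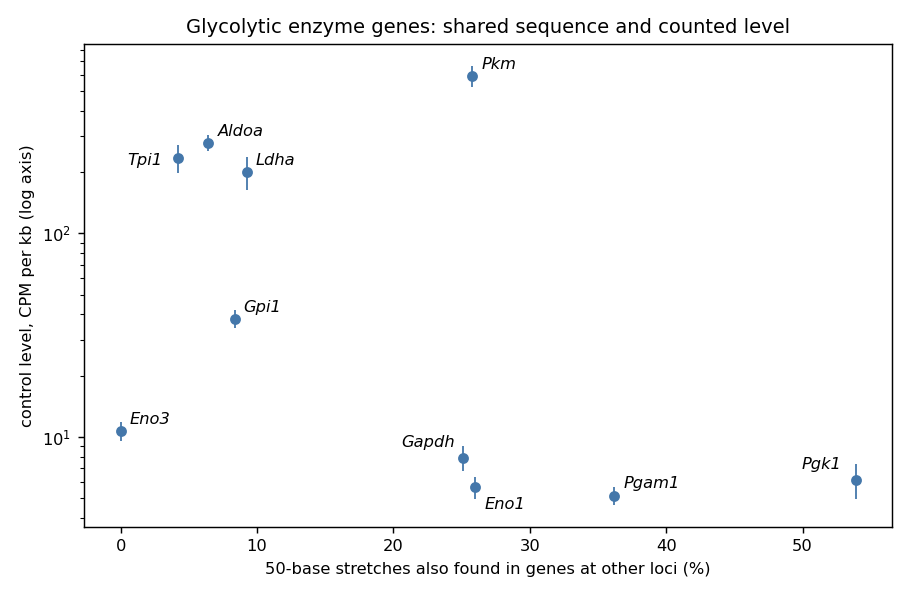
Control level per length against shared sequence for 10 glycolytic enzyme genes. The horizontal axis is the percentage of 50-base transcript stretches also found in genes at other loci, the vertical axis is CPM per kb on a log scale, and points are means with SD bars over 2 control libraries. Gapdh, Eno1, Pgam1 and Pgk1 lie at 25.1% or more and under 10 CPM per kb, while Pkm lies at 25.8% and 594.

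Within the HIF system, the regulator itself did not separate the groups. Hif1a, the oxygen-regulated alpha subunit, was at 180 and 253 CPM in the controls and 227 and 233 after stimulation (log2 0.09, 95% interval -0.35 to 0.53, edgeR adjusted p = 0.741). HIF-1 alpha is controlled mostly through the stability of its protein, which was not measured. Epas1, the gene of the related subunit HIF-2 alpha, fell from 72.4 ± 1.73 to 22.4 ± 1.83 CPM (SD, n = 2, log2 -1.69 ± 0.14 SE, edgeR adjusted p = 0.000535). Per length, Hif1a was 68.7% and 76.2% of the HIF alpha level in the controls and 90.6% and 89.8% after stimulation. The summed alpha level was 50.3 ± 8.49 CPM per kb in the controls and 43.3 ± 1.08 after stimulation.

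Of the prolyl hydroxylases, Egln1 (PHD2), the main oxygen sensor for HIF, was at 90.0 and 70.6 CPM in the controls and 70.5 and 54.7 after stimulation (log2 -0.36, edgeR adjusted p = 0.182). Egln2 (PHD1) was at 138 and 134 against 208 and 144 CPM, with stimulated 1 set apart from the other 3 libraries (log2 0.37, edgeR adjusted p = 0.18). Egln3 (PHD3, ENSMUSG00000035105, chr12:54178981-54203860), itself a HIF target that feeds back on HIF, was called lower on few reads, with counts of 14 and 19 in the controls and 3 and 2 after stimulation (log2 -2.37 ± 0.61 SE, edgeR adjusted p = 0.0228). That call was lost without any 1 of the 4 libraries (edgeR adjusted p from 0.0521 to 0.131) and with DESeq2 (adjusted p = 0.111). Vhl, which recognises hydroxylated HIF, was slightly lower in both stimulated libraries, at 86.4 and 85.0 against 97.0 and 107 CPM, and did not pass (edgeR adjusted p = 0.183). Per length, Egln2 was 67.9% ± 3.17 of the EGLN level in the controls and 77.7% ± 1.41 after stimulation.

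Of the 5 tested HIF targets outside glycolysis, 3 fell. Bnip3l (NIX, ENSMUSG00000022051, chr14:66985239-67008877), a mitochondrial receptor for mitophagy, went from 101 and 140 CPM to 46.6 and 57.9 (log2 -1.20 ± 0.20 SE, edgeR adjusted p = 0.00503). It was the only one of the 4 fallen HIF members that kept its call without any single library. Its relative Bnip3 was low, at 2.19 and 3.79 against 2.02 and 2.32 CPM, with overlapping groups (log2 -0.46, edgeR adjusted p = 0.34). Of their stretches, 20.8% for Bnip3l and 47.2% for Bnip3 were also found at other loci. Ankrd37 (ENSMUSG00000050914, chr8:45996902-45999867), an ankyrin repeat gene known to be induced in hypoxia, went from 4.88 and 6.18 to 2.45 and 3.11 CPM (log2 -0.99 ± 0.28 SE, edgeR adjusted p = 0.0305). It shares 17.0% of its stretches with the overlapping genes Ufsp2 and Lrp2bp, and its call was lost without control 2 (0.129) or stimulated 1 (0.134), both edgeR adjusted p-values. P4ha1, a collagen prolyl hydroxylase subunit, overlapped between groups, at 60.6 and 115 CPM against 82.8 and 109.

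Pdk1 (ENSMUSG00000006494, chr2:71873224-71903858), the kinase that shuts off pyruvate dehydrogenase and so keeps pyruvate out of mitochondria, fell steeply, as did Egln3. It was at 10.2 and 26.2 CPM in the controls and 2.14 and 4.46 after stimulation, so that the controls differed widely between themselves and the groups were still apart (log2 -2.46 ± 0.61 SE, edgeR adjusted p = 0.0351). Its size depended on the library: the log2 change was -2.99 without control 1, -1.62 without control 2, -2.02 without stimulated 1 and -3.06 without stimulated 2. The edgeR adjusted p was 0.221 without stimulated 1 and 0.0855 without stimulated 2, and the call held without either control. Pdk3, another kinase of the same family and not a member, rose from 24.6 ± 2.41 to 41.3 ± 1.51 CPM (SD, n = 2, log2 0.75 ± 0.15 SE, edgeR adjusted p = 0.00932). Per length, Pdk1 was 11.8% and 23.5% of the kinase family's level in the controls and 1.61% and 3.46% after stimulation, and Pdk3 was 81.0% and 71.6%, then 97.1% and 94.8%. Without division by length the Pdk1 share was 38.2% ± 13.7 in the controls and 7.25% ± 3.57 after stimulation, the same direction.

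**Figure D4:**
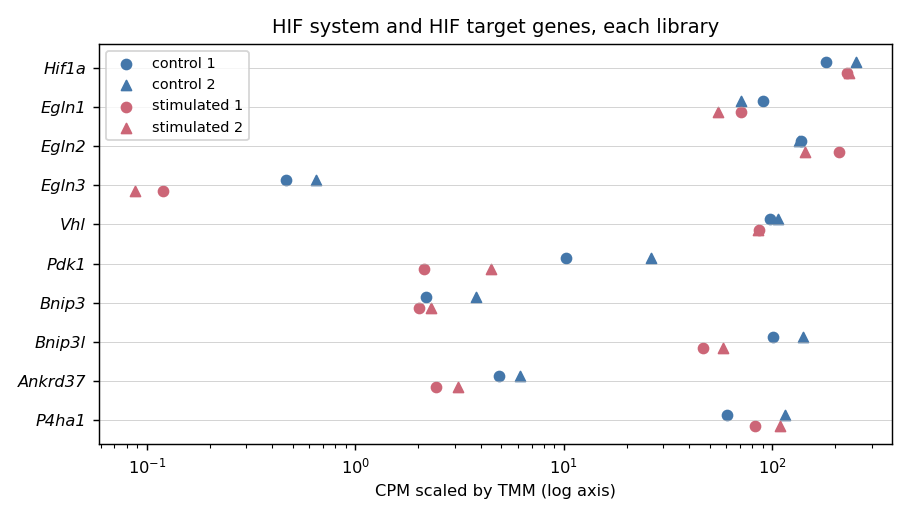
Level of each HIF system and HIF target gene in each library, in TMM-scaled CPM on a log axis. Blue marks controls and red marks stimulated libraries, circles are library 1 and triangles library 2. The red points of Egln3, Pdk1, Bnip3l and Ankrd37 lie to the left of both blue points, and those of Hif1a, 227 and 233, lie between its controls at 180 and 253.

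**Figure D5:**
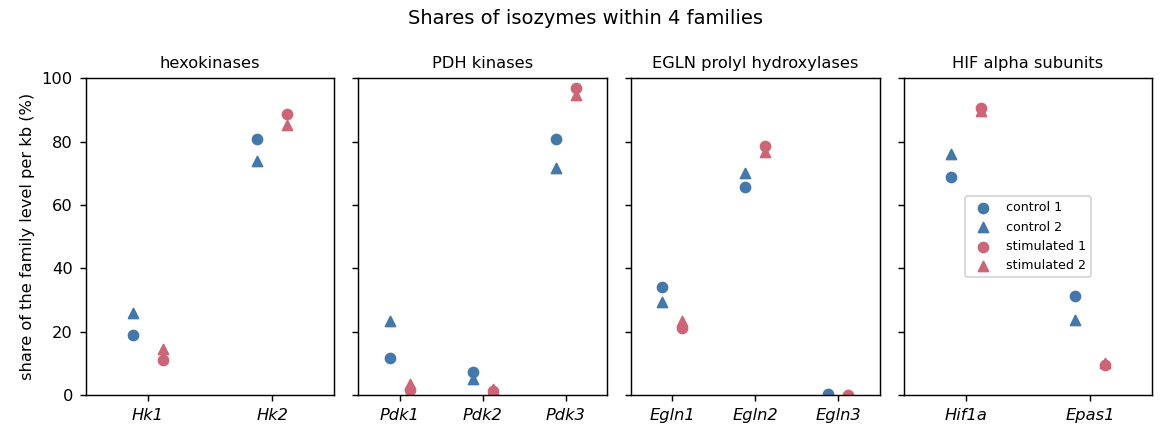
Share of each family's level per kb held by its named genes, in percent, for each library, with the families in 4 panels. Blue marks controls and red marks stimulated libraries, circles are library 1 and triangles library 2. Pdk3 moved from 81.0% and 71.6% to 97.1% and 94.8% and Hif1a from 68.7% and 76.2% to 90.6% and 89.8%.

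Other genes of these pathways, from lists written by pathway, were split as well. Among 100 tested genes of 7 lists, 29 rose, 21 fell and 50 did not pass, with a median log2 change of 0.12. Over all genes tested, 17.5% were called higher and 18.3% lower, and the counts of each list below stand beside these shares. Whether any list differs from them was not tested. Of 15 other glycolysis isozymes and transporters, 3 rose and 3 fell. They included Adpgk, an ADP-dependent glucokinase, which rose from 17.6 ± 1.28 to 41.1 ± 1.94 CPM (SD, n = 2, log2 1.22, edgeR adjusted p = 0.0016), and the intracellular glucose carrier Slc2a8, which fell from 44.6 ± 0.822 to 16.1 ± 0.0838 CPM (log2 -1.47, edgeR adjusted p = 0.000748). Ldhd, the mitochondrial D-lactate dehydrogenase, fell from 68.8 ± 17.8 to 2.95 ± 1.82 CPM (log2 -4.53, edgeR adjusted p = 0.00296). Slc2a6 and Bpgm, the most abundant that did not pass, had edgeR adjusted p-values of 0.23 and 0.103.

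Of 12 tested genes for pyruvate entry into mitochondria, 4 rose and 3 fell. Beside Pdk3, the dehydrogenase subunit Pdhx rose from 40.3 ± 1.01 to 63.8 ± 5.06 CPM (SD, n = 2, edgeR adjusted p = 0.0113), and Pdpr, the regulatory subunit of the phosphatase that reactivates the enzyme, fell from 42.1 ± 6.42 to 11.3 ± 2.66 CPM (edgeR adjusted p = 0.00128). Pdha1 and Dld, catalytic subunits, did not pass (0.0773 and 0.683, edgeR adjusted). Of 10 pentose phosphate genes, 3 rose and 1 fell. Transketolase, Tkt, rose from 269 ± 26.0 to 469 ± 115 CPM (edgeR adjusted p = 0.022), Prps1, which makes phosphoribosyl pyrophosphate, rose with a log2 change of 0.82 (edgeR adjusted p = 0.0089), and H6pd, the enzyme of the endoplasmic reticulum, fell with one of -0.67 (edgeR adjusted p = 0.0105). Pgd and Prps2 did not pass (0.572 and 0.528, edgeR adjusted).

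Of 12 glycogen genes, 1 rose and 3 fell. The branching enzyme Gbe1 fell with a log2 change of -0.76, the glycogenin gene Gyg with -0.62 and Pgm2l1, which makes glucose bisphosphate, with -1.43 (edgeR adjusted p = 0.0147, 0.0142 and 0.00414), while Pgm1 and the phosphorylase Pygb did not pass (0.871 and 0.135, edgeR adjusted). Of the 2 glucose-sensing arrestins, Arrdc4 fell from 75.8 ± 0.943 to 37.2 ± 1.80 CPM (SD, n = 2, edgeR adjusted p = 0.00206) and Txnip, at 50.9 ± 12.1 and 59.3 ± 3.09 CPM, did not pass (edgeR adjusted p = 0.405).

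Of 14 other HIF subunits and oxygen-sensing genes, 4 rose and 5 fell. Siah2, a ubiquitin ligase that targets prolyl hydroxylases, rose from 33.6 ± 2.45 to 108 ± 12.8 CPM (SD, n = 2, log2 1.68, edgeR adjusted p = 0.000638). Cited2, a HIF target that competes with HIF for its coactivators, fell from 75.4 ± 9.95 to 13.7 ± 4.30 CPM (log2 -2.46, edgeR adjusted p = 0.000872). The coactivator genes Crebbp and Ep300 did not pass (0.125 and 0.851, edgeR adjusted). Of 35 other HIF targets, 14 rose, 5 fell and 16 did not pass, with a median log2 change of 0.40. The transferrin receptor gene Tfrc rose from 238 ± 40.6 to 825 ± 59.9 CPM (log2 1.79, edgeR adjusted p = 0.0008) and Mif from 32.9 ± 2.70 to 103 ± 1.25 CPM (log2 1.64, edgeR adjusted p = 0.000535). Ccng2, a cyclin G gene, fell from 140 ± 10.4 to 49.2 ± 3.96 CPM (log2 -1.51, edgeR adjusted p = 0.000715), and Plod2 and Bhlhe40 did not pass (0.964 and 0.0994, edgeR adjusted). Many of these targets also answer to other factors.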

How the data were processed

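RNA was sequenced from 2 control and 2 stimulated Mnk3 libraries. Per the labels' protocols, total RNA was depleted of ribosomal RNA. The submitters' processing notes name STAR, Subread and featureCounts without versions. Genome build, annotation release, use of strand and treatment of reads that fit several loci: not given in the sources used here, which leaves genes that overlap or share sequence uncertain. Per the file headers, each deposited table gives a whole-number count per gene. The deposited CPM and RPKM were recomputed from these counts and not used further. Coordinates are those of the count tables.

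Identifiers were matched to GENCODE M21 symbols (40254 of 41388 matched). Counts were tested with edgeR 4.0.16 (R 4.3.3, limma 3.58.1): filterByExpr, TMM, robust quasi-likelihood fit, treatment as the only term, Benjamini-Hochberg over 13838 genes, threshold 0.05. The common biological coefficient of variation was 18.4%. SE is the log2 change over the square root of F, and intervals use the fit's degrees of freedom, so both are approximate. Levels per length are TMM-scaled CPM per kb of the listed length. The fit was tested on simulated counts. Stretches of 50 and 100 bases were compared among GENCODE M21 transcripts, and shares are for 50 bases unless stated. Alternatives were other scalings, filters, tools (DESeq2 1.42.0, limma-voom), thresholds, glmTreat, a replicate block, single libraries left out and added copies, the last chosen after seeing the data. All members are named. Of each other list, the text names up to 3 called genes, taken by adjusted p, and up to 2 others, taken by mean CPM. Members and lists were chosen with earlier results of these data known.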

Additional observations from a re-analysis of the deposited data

How the results depend on the processing

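Of the calls higher and lower among glycolysis members (7 and 1), the counts were 4 and 2 with total count scaling, 5 and 2 with upper quartile scaling, 7 and 0 with DESeq2 size factors, 9 and 2 without a low-count filter, 6 and 0 without robust estimation, 3 and 0 with glmTreat against a log2 fold of 0.5, and 3 and 0 at an adjusted p of 0.01. Restricting to members with under 10% of stretches at other loci kept 17 tested glycolysis members, with 3 and 1 calls. Of the 5 tested ones it left out, 4 had been called higher. For HIF members (0 and 4) it gave 0 and 3, with 8 tested members kept. For HIF members the lower count was 2 with glmTreat and 1 at 0.01. Over all genes (2417 and 2533), glmTreat called 1154 and 1387, and 0.01 called 1244 and 1324. In the other lists (29 and 21), glmTreat called 14 and 14, and 0.01 called 17 and 12. With 1 library left out, counts ran from 4 to 7 higher and 0 to 1 lower for glycolysis, 0 to 1 and 1 to 3 for HIF members, 1593 to 2001 and 1665 to 2035 for all genes, and 22 to 24 and 15 to 21 for the other lists; in these fits the lone library of a group is assumed to vary like the other group. The titles state no pairing. A replicate block by kind of title called 13 and 3 glycolysis members, 1 and 6 HIF members, and 3986 and 4000 of all genes. Total count scaling moved the median of all genes from -0.016 to -0.108 (log2), and the share of calls that were higher from 48.8% to 40.9%. Log2 changes that reversed in sign were all of members that did not pass. Upper quartile and total count scaling gave -0.01 and -0.05 for Gpi1 and -0.04 and -0.08 for Pfkm. With 1 library left out, the log2 change ran from -0.20 (without stimulated 1; -0.06 without control 2) to 0.28 for Gpi1, -0.08 (without stimulated 1; -0.01 without control 2) to 0.13 for Pfkm, -0.04 (without control 1) to 0.27 for Tpi1, -0.31 to 0.14 (without stimulated 1) for Slc16a3, -0.14 (without control 1) to 0.36 for Hif1a, and -0.27 (without control 1; -0.06 without stimulated 2) to 0.66 for P4ha1. The cause of these shifts was not tested. Slc16a1, Pgk1, Eno3 and Bnip3l kept their calls under every alternative run, apart from the added restriction to members with few shared stretches, which leaves out Pgk1 and Bnip3l. Depth limits Egln3 and Ldhb most, with counts under 20 in each library.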
